A study of Mus musculus with 27 samples.

Results

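The comparison described here set left kidneys after 22 or 24 min of warm ischemia against sham kidneys. The kidneys were chosen by ischemia time, with earlier results of these data known, and 9 of the 27 kidneys in the series belong to it. These were 3 kidneys at 22 min and 3 at 24 min, pooled as 1 group of 6, and 3 sham kidneys. All were from C57BL/6 mice and were collected 24 h after surgery. In the uIRIx model the pedicle of the left kidney was clamped and the right kidney was taken out. The study describes this surgery for all its ischemia times, with sham as 0 min. It does not state separately that sham mice lost the right kidney, and the labels say only sham. If they did, loss of the other kidney and growth of the remaining one are shared by both groups and are not measured by the comparison. If they did not, these cannot be told apart from clamping. Age and sex of the mice are not given in the sources used here. Replicates were single mice, 1 library each. Bulk left kidney tissue was profiled, in which fewer cells of a type and less RNA per cell cannot be told apart. The question was which genes differ at an ischemia time in the middle of the series, and how that state sits beside shorter and longer clamping.

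Clamping the renal pedicle stops blood flow, and reperfusion brings oxygen back to tissue that has run out of ATP. The proximal tubule, which depends on oxidative metabolism and reabsorbs most of the filtrate, is the segment most prone to injury. Surviving tubular cells lose part of their brush border, switch on injury genes such as Havcr1 (kidney injury molecule KIM1) and Lcn2 (the iron-siderophore carrier NGAL), and re-enter the cell cycle to replace lost neighbours. Interferons act through transcription factors that bind interferon-stimulated response elements (ISRE) upstream of target genes, among them large GTPases that attack intracellular microbes. Genes of mitosis often carry a cell cycle homology region (CHR), through which the MuvB complex holds them silent in resting cells and raises them before division.

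Promoter sequences of the interferon GTPases and of the mitotic genes are shown because nearly every member of these groups passed the thresholds, in opposite directions. Sequences are from RefSeq on GRCm38.p6, the build in the submitters' processing notes, and cover the 120 bases before the annotated start, outside the transcript. Capitals mark a match to the ISRE letters GAAANN followed by GAAA in the first 3, and to the CHR letters TTTGAA or TTTAAA in the last 3, on either strand.
Tgtp1 (chr11:48992247-48992366, minus strand): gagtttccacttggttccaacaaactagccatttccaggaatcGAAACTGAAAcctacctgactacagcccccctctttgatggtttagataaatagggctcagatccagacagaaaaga
Igtp (chr11:58199436-58199555, plus strand): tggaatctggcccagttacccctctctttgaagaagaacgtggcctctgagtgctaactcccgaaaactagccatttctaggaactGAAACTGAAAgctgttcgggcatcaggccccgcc
Irgm1 (chr11:48871421-48871540, minus strand): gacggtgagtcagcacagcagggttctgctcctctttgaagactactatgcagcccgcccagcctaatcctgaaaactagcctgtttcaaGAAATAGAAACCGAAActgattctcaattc
Cdc20 (chr4:118437344-118437463, minus strand): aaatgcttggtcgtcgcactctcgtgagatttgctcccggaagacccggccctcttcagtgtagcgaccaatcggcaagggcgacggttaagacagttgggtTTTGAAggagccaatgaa
Plk1 (chr7:122159315-122159434, plus strand): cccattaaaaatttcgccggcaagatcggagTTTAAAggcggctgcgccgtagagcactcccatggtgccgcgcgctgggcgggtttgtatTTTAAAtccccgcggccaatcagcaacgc
Ube2c (chr2:164769809-164769928, plus strand): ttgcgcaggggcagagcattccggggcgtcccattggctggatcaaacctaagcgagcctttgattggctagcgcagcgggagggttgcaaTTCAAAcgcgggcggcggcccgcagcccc
Over the 250 bases before the start, 2.73% of the 14320 tested genes with a RefSeq promoter held the ISRE letters. All 9 interferon GTPases with a promoter in the table held them, 7 of 20 other interferon genes did, and so did 18.3% of the genes called lower in the comparison and 3.91% of those called higher. The CHR letters were in 19.6% of all promoters and in 14 of 26 promoters of mitotic genes. They were also in 4 of the 9 interferon GTPase promoters, and in 26.0% of the genes called higher and 24.3% of those called lower. The Igtp and Irgm1 sequences above hold CHR letters that are not marked. A CHR match cannot lie inside an ISRE match, although the ends can overlap, and a match is only a description of the sequence.

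Depth was not given with the values, which are FPKM (fragment density over the length of a transcript, relative to the total of the library) for 19392 gene symbols. In the 9 kidneys the FPKM summed to between 530986 and 545104, and between 11881 and 12304 genes were at 1 FPKM or more. Markers of the proximal tubule summed to between 2800 and 4000 FPKM in every one of them, and those of podocytes to between 56.6 and 86.8 FPKM. Both were thus present in each kidney, which does not show that the same parts of the kidney were taken. Correlations across genes were between 0.9916 and 0.9964 within sham, between 0.9925 and 0.9971 from 22 to 24 min, and between 0.9696 and 0.9843 from sham to ischemia. Genes above 0 FPKM in at least 3 of the 27 kidneys were tested on quantile-normalized log2(FPKM + 1) values, a scale on which the fold changes of low genes are understated. Of the 18188 genes tested, 588 were differentially expressed genes (DEGs), which means a change of more than 1 on the log2 scale in either direction with an adjusted p under 0.05 by limma (3.23% of genes tested). Higher expression was found for 369 of them (2.03%) and lower for 219 (1.2%). In 535 DEGs the 6 ischemic and 3 sham kidneys did not overlap, beside 34.8% of all genes tested. Without quantile normalization the split was 466 higher and 180 lower (72.1% higher, beside 62.8%). Of the 588 DEGs, 224 were in a functional list used here and 364 were in none.

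The sham kidneys were not alike, and 2 of them stood apart in different genes. Sham replicate 1 was the lowest of the 3 in all 16 interferon GTPases tested and in 26 of 28 other interferon genes. Sham replicate 3 was the highest of the 3 in 24 of 30 tubular injury markers. The sham kidneys differed among themselves by over 2 on the log2 scale in 56 DEGs (0.368% of all genes tested did so), and 50 of these were lower after ischemia. Sham replicate 1 was the lowest in 49 of those 50. Among ischemic kidneys, 22 min replicate 3 stood apart in fat and urothelial genes, with a summed level of adipocyte markers of 405 FPKM beside 47.5 to 74.3 FPKM in the other 5, and of mesothelium and urothelium markers of 44.1 FPKM beside 2.82 to 11.8 FPKM. Values without these kidneys stand beside the results they move most. Without sham replicate 1, 2 or 3 the comparison called 601, 503 or 599 DEGs, and without 22 min replicate 3 it called 550.

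**Figure D1:**
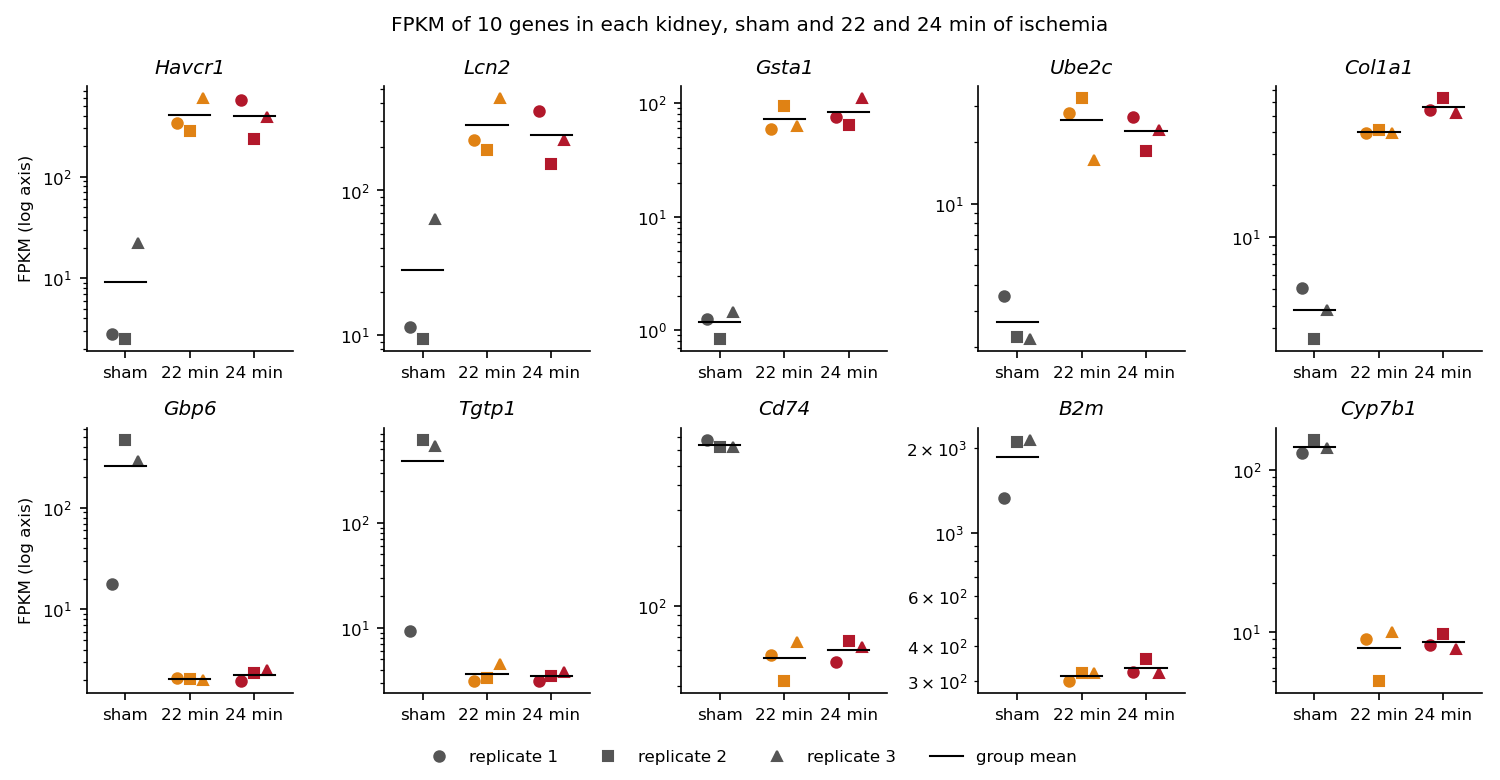
FPKM (log axis) of 10 genes in each sham, 22 min and 24 min kidney, with marker shapes for replicates 1, 2 and 3 and a line at each group's mean. Sham replicate 3 is above the other sham kidneys in Havcr1 and Lcn2, sham replicate 1 is below them in Gbp6 and Tgtp1, and the sham kidneys lie close together in Gsta1, Cd74 and Cyp7b1.

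Tubular injury markers were higher after 22 and 24 min, with 19 of 30 called higher and 0 called lower, and a median log2 fold change of 1.32 beside -0.01 over all genes tested. Havcr1, a phosphatidylserine receptor that tubular cells use to engulf dying neighbours, was at 2.81, 2.49 and 22.02 FPKM in sham replicates 1 to 3 and between 235 and 595 FPKM (median 363) in the 6 ischemic kidneys. Its log2 fold change was 5.67 ± 0.63 (SE, adjusted p = 1.61e-06), the largest increase of all genes tested, and without sham replicate 3 it was 6.53. The groups did not overlap, and sham replicate 3 was the highest sham kidney by far. Lcn2 was at 11.5, 9.39 and 63.6 FPKM in sham and between 152 and 434 FPKM (median 222) after ischemia, a log2 fold change of 3.47 ± 0.66 (SE, adjusted p = 0.000347), and 4.28 without sham replicate 3. Krt20, a keratin of stressed epithelium that resting tubules lack, was at 0.23, 0.32 and 1.11 FPKM in sham and between 5.08 and 18.3 FPKM (median 13.4) after ischemia, a log2 fold change of 3.03 ± 0.46 (SE, adjusted p = 4.44e-05). S100a6, a calcium-binding protein of dedifferentiated cells, was at 10.9, 8.27 and 24.7 FPKM in sham and between 136 and 236 FPKM (median 161) after ischemia, which is 3.45 ± 0.39 (SE, adjusted p = 1.74e-06) on the log2 scale. In each of Lcn2, Krt20 and S100a6 sham replicate 3 was the highest sham kidney and still below every ischemic kidney. Spp1 (osteopontin), the matrix phosphoprotein made by injured tubules, had the highest levels of the list, at 776, 1132 and 1705 FPKM in sham and between 6433 and 12690 FPKM (median 7965) after ischemia, a log2 fold change of 2.75 ± 0.43 (SE, adjusted p = 5.01e-05). Clu (the extracellular chaperone clusterin) and Anxa2 (a membrane-binding annexin) rose by 2.02 and 1.89. Sox9, a factor of repairing tubule cells, had a fold change of 0.93 (adjusted p = 0.013) and stayed under the fold threshold, with 0.25, 0.22 and 0.16 FPKM in sham and between 0.88 and 2.2 FPKM (median 1.47) after ischemia. Vcam1 and Cdkn1a had fold changes of 0.93 (adjusted p = 0.115) and 0.82 (adjusted p = 0.0525). In all but 2 of the 30 markers the groups did not overlap, beside 34.8% of all genes tested.

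Outside the lists, Serpina10, the plasma inhibitor of coagulation factor Xa, was among the 10 largest increases without overlap. It was at 1.17, 3.16 and 4.68 FPKM in sham and between 18.7 and 52.8 FPKM (median 25.7) after ischemia, a log2 fold change of 2.90 ± 0.56 (SE, adjusted p = 0.000429). Its sham kidneys spread widely, with replicate 1 lowest, and stayed below every ischemic kidney.

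Genes of the cell cycle were higher in nearly every case. Of 33 genes of DNA replication and S phase 26 were called higher and 0 lower (median 1.23), and of 30 genes of mitosis 28 were called higher and 0 lower (median 1.71). The groups did not overlap in 32 of the 33 and in 30 of the 30 genes, beside 34.8% of all genes tested. Rrm2, the small subunit of ribonucleotide reductase, which makes DNA precursors, was at 4.28, 2.03 and 3.66 FPKM in sham and between 19 and 39.98 FPKM (median 30.3) after ischemia, a log2 fold change of 2.73 ± 0.34 (SE, adjusted p = 6.09e-06). Uhrf1, which carries DNA methylation over to new strands, was at 1.92, 1.28 and 3.07 FPKM in sham and between 11.5 and 24.2 FPKM (median 16.7) after ischemia, a log2 fold change of 2.45 ± 0.36 (SE, adjusted p = 3.1e-05). Pcna (the sliding clamp of DNA polymerase) and Mcm2 (a subunit of the replicative helicase) rose by 1.14 and 1.26. Among mitotic genes, Ube2c, the ubiquitin-conjugating enzyme of the anaphase-promoting complex, was at 3.55, 2.24 and 2.18 FPKM in sham and between 16.4 and 32.6 FPKM (median 24.7) after ischemia, a log2 fold change of 2.62 ± 0.32 (SE, adjusted p = 4.37e-06). Cdc20, the activator of that complex, was at 2.46, 0.81 and 1.74 FPKM in sham and between 7.13 and 16.6 FPKM (median 11.3) after ischemia, a log2 fold change of 2.04 ± 0.36 (SE, adjusted p = 0.000182), and Plk1, a kinase of mitotic entry, was at 1.22, 0.65 and 0.73 FPKM in sham and between 4.67 and 9.41 FPKM (median 6.88) after ischemia, a log2 fold change of 1.95 ± 0.30 (SE, adjusted p = 4.2e-05). Their CHR matches are the capitals in the last 3 sequences above. Mki67, the usual marker of proliferating cells, was at 1.08, 0.39 and 0.62 FPKM in sham and between 4.75 and 10.2 FPKM (median 7.55) after ischemia, a log2 fold change of 2.21 ± 0.32 (SE, adjusted p = 2.89e-05). Every sham kidney was below every ischemic kidney in all 6 of these genes. Foxm1, a factor that works at CHR promoters, rose by 1.83 (adjusted p = 1.73e-05). Summed over the 30 mitotic genes, the level was 19.1 to 37.6 FPKM in sham and 141 to 268 FPKM after ischemia. Leaving out each of the 9 kidneys in turn kept 26 of the 28 mitotic and 21 of the 26 replication calls in all 9 fits.

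Gsta1, a glutathione transferase that is hardly expressed in the resting kidney, had the largest increase after Havcr1 among genes with a full symbol. It was at 1.25, 0.83 and 1.44 FPKM in sham and between 59.2 and 111 FPKM (median 69.8) after ischemia, a log2 fold change of 5.0 ± 0.44 (SE, adjusted p = 1.02e-07), and no sham kidney stood apart. Reads of Gsta1 and Gsta2 can be split between near-identical copies, so their separate levels are uncertain, and Gsta2 was at 144, 218 and 224 FPKM in sham and between 411 and 518 FPKM (median 454) after ischemia, a log2 fold change of 1.23 ± 0.18 (SE, adjusted p = 2.71e-05). Of the 24 NRF2 targets and glutathione enzymes 7 were called higher and 0 lower (median 0.34). The others called were Gstp1 with 1.34, the aldo-keto reductase Akr1b8 with 2.14, the carboxylesterase Ces1g with 2.26, the carbonyl reductase Cbr3 with 1.18 and Hmox1, which degrades heme, with 1.20. Nqo1, a quinone reductase often used to read NRF2 activity, was at 46.03, 44.8 and 45.7 FPKM in sham and between 73.1 and 109 FPKM (median 82.4) after ischemia. Its groups did not overlap, and its fold change of 0.80 (adjusted p = 0.000575) was under the fold threshold. Metal-binding Mt1 and Mt2 (metallothioneins) rose by 1.73 (adjusted p = 6.45e-05) and 2.04 (adjusted p = 0.000641), among 4 higher and 1 lower of 20 genes of iron, heme and metallothionein. Fth1, the ferritin heavy chain, shows a limit of the scaling at the top of the range. It was at 5205, 5375 and 5707 FPKM in sham and between 6731 and 8197 FPKM (median 7079) after ischemia, yet its fold change was -0.29 (adjusted p = 0.0315) after quantile normalization and 0.42 (adjusted p = 0.0033) without it.

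Immediate early factors and chemokines were higher in part. Of 20 AP-1 and immediate early factors 7 were called higher and 0 lower (median 0.86), and of 27 chemokines and acute cytokines 8 and 0 (median 0.61). In all 9 fits that each left out 1 kidney, 4 of the 20 and 8 of the 27 were called. Against sham, 22 min alone called 9 of the 20 factors higher and 24 min alone 4. Egr1, a zinc finger factor induced within minutes of stress, was at 3.31, 1.71 and 3.54 FPKM in sham and between 13.8 and 45.6 FPKM (median 36.2) after ischemia, a log2 fold change of 2.90 ± 0.41 (SE, adjusted p = 2.16e-05). Fos and Junb, which pair in AP-1, rose by 1.59 and 1.64. Cxcl1, which draws neutrophils, was at 0.83, 1.48 and 3.6 FPKM in sham and between 20.1 and 50.6 FPKM (median 33.5) after ischemia, a log2 fold change of 3.46 ± 0.50 (SE, adjusted p = 2.35e-05), and Ccl2, which draws monocytes, was at 0.66, 0.8 and 1.68 FPKM in sham and between 4.41 and 8.28 FPKM (median 7) after ischemia, a log2 fold change of 1.75 ± 0.29 (SE, adjusted p = 9.03e-05). Lif, an IL-6 family cytokine, and Socs3, the feedback inhibitor of that family's signalling, rose by 1.24 and 1.82. In Cxcl1, Ccl2, Lif and Socs3 sham replicate 3 was the highest of the sham kidneys.

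Matrix and cytoskeleton genes formed the other large group of increases. Of 33 genes of collagens and matrix 18 were called higher and 0 lower (median 1.02). Col1a1, a chain of fibrillar collagen I, was at 5.08, 2.57 and 3.79 FPKM in sham and between 39.7 and 63.2 FPKM (median 46.6) after ischemia, a log2 fold change of 3.23 ± 0.28 (SE, adjusted p = 1.05e-07), and Col3a1, the chain of collagen III, was at 5.87, 3.69 and 4.77 FPKM in sham and between 43.4 and 72.3 FPKM (median 56.6) after ischemia, a log2 fold change of 3.22 ± 0.26 (SE, adjusted p = 4.98e-08). Neither group overlapped the other in these genes, and sham replicate 3 did not stand out in them. Timp1, an inhibitor of matrix metalloproteinases, was at 0.6, 0.22 and 3.67 FPKM in sham and between 17.01 and 35.1 FPKM (median 20.9) after ischemia, a log2 fold change of 3.37 ± 0.48 (SE, adjusted p = 2.36e-05), with sham replicate 3 highest. Fn1 (fibronectin), Sparc (a collagen-binding matrix protein) and Vim (the intermediate filament vimentin) rose by 1.74, 1.81 and 1.86. Summed over the fibroblast, pericyte and smooth muscle markers, sham kidneys had 98.4 to 121 FPKM and ischemic kidneys 152 to 228 FPKM, with 2 of 9 markers called higher (median 0.18). The part of these cells in the collagen values was not tested. Of 34 tubulin and actin cytoskeleton genes 15 were called higher and 0 lower (median 0.83). All 34 had groups that did not overlap, beside 34.8% of all genes tested. Tubb5, a beta tubulin of dividing cells, was at 28.8, 24.1 and 32.2 FPKM in sham and between 99.5 and 129 FPKM (median 114) after ischemia, a log2 fold change of 1.87 ± 0.20 (SE, adjusted p = 1.01e-06), and Tmsb10, an actin-binding thymosin, was at 81.3, 69.2 and 81.5 FPKM in sham and between 269.6 and 328 FPKM (median 304) after ischemia, a log2 fold change of 1.88 ± 0.22 (SE, adjusted p = 2.8e-06).

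**Figure D2:**
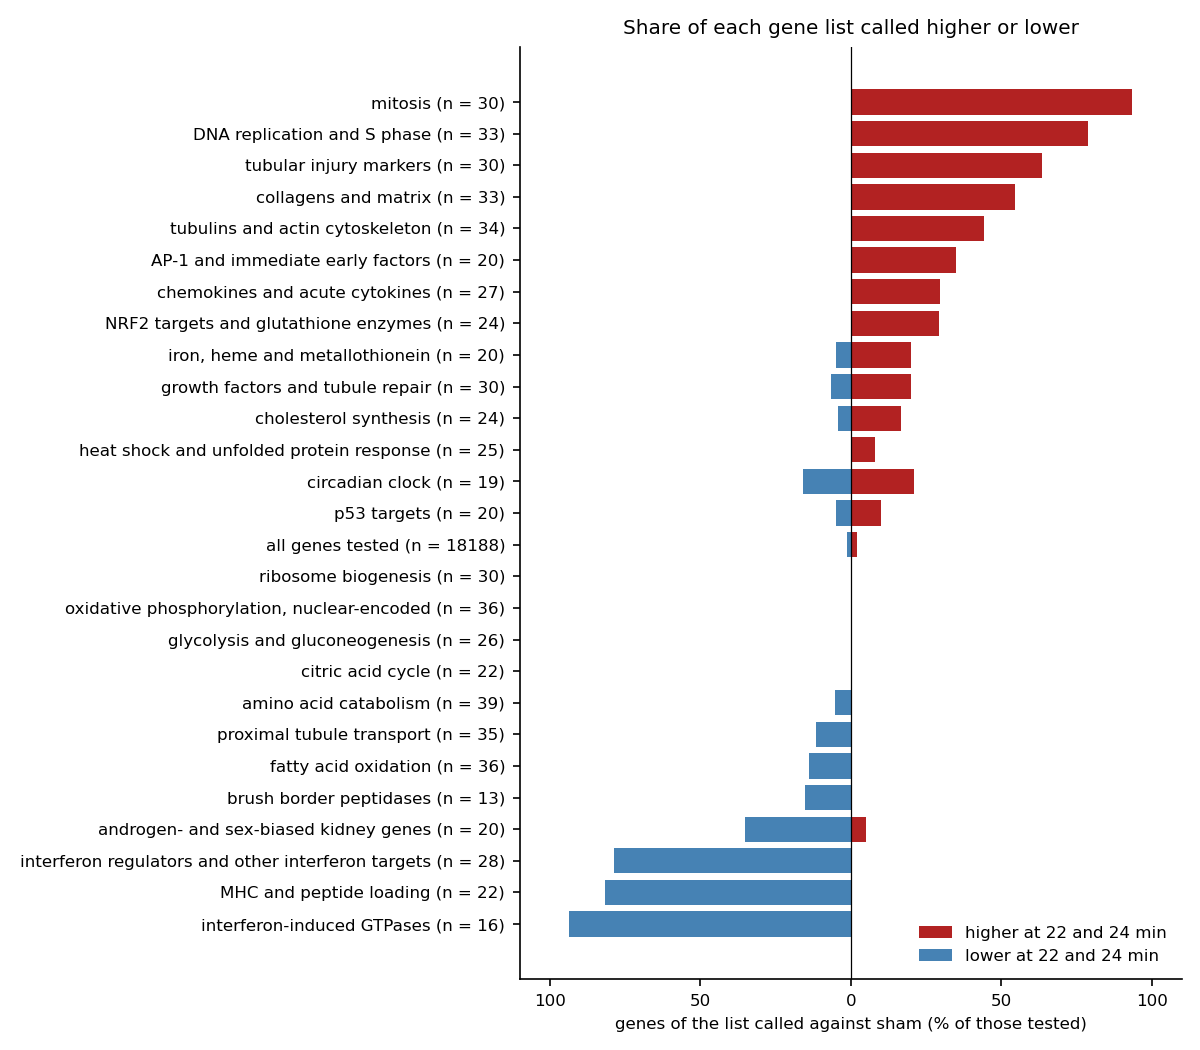
Percent of the tested genes of each functional list that were called higher (right) or lower (left) at 22 and 24 min against sham, with the number tested after each name. The lists of mitosis and DNA replication lie furthest to the right with 28 of 30 and 26 of 33 genes, the interferon GTPases furthest to the left with 15 of 16, and citric acid cycle, glycolysis, oxidative phosphorylation and ribosome biogenesis have 0.

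Interferon-induced genes were lower after ischemia than in the mean of the sham kidneys, but that mean was set by sham replicates 2 and 3. Of 16 interferon GTPases 15 were called lower and 0 higher (median -2.48), and of 28 other interferon genes 22 and 0 (median -1.35). The groups did not overlap in 10 of the 16 and 8 of the 28, beside 34.8% of all genes tested. The share in the 28 was thus not above that of all genes. Gbp6, a guanylate-binding protein, was at 17.7, 466 and 291 FPKM in sham replicates 1 to 3 and between 1.94 and 2.5 FPKM (median 2.06) in the ischemic kidneys, a log2 fold change of -5.59 ± 0.58 (SE, adjusted p = 7.65e-07), the largest decrease of all genes tested. Tgtp1, an immunity-related GTPase first found in T cells, was at 9.3, 613 and 535 FPKM in sham and between 3.09 and 4.55 FPKM (median 3.42) after ischemia, a log2 fold change of -5.21 ± 0.78 (SE, adjusted p = 3.9e-05). Iigp1, another of that family, was at 6.11, 470.1 and 362 FPKM in sham and between 3.55 and 5.2 FPKM (median 3.85) after ischemia, a log2 fold change of -4.57 ± 0.77 (SE, adjusted p = 0.000116), and Igtp was at 17.4, 503 and 363 FPKM in sham and between 8.68 and 10.4 FPKM (median 9.73) after ischemia, a log2 fold change of -3.97 ± 0.61 (SE, adjusted p = 4.75e-05). In these 4 genes sham replicate 1 was far below the other sham kidneys and nearer to the ischemic range than to them. Without sham replicates 1, 2 and 3 in turn, the log2 fold change was -7.03, -4.63 and -5.10 for Gbp6, and -7.17, -4.19 and -4.28 for Tgtp1. In the same order it was -6.55, -3.45 and -3.72 for Iigp1 and -5.51, -3.06 and -3.36 for Igtp. Gbp10, Tgtp2 and Ifi47 had fold changes of -4.42 (adjusted p = 1.21e-06), -3.95 (adjusted p = 8.11e-05) and -3.52 (adjusted p = 7.42e-05) and the same order of sham kidneys, and without sham replicate 1 these were -5.63, -5.57 and -4.94, and without sham replicate 2 -3.61, -3.07 and -2.67. For Tgtp2 the value without sham replicate 3 was -3.20. Reads of Tgtp1 and Tgtp2, and of the Gbp genes, can be split between close copies, so single members are less certain than the family.

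Set against sham replicate 1 alone, the median difference over the 16 GTPases was -0.41 on the log2 scale, beside -3.99 against replicate 2 and -3.27 against replicate 3. Over the 28 other interferon genes these medians were -0.07, -2.23 and -2.03. In 6 of the 16 and 9 of the 28 genes sham replicate 1 lay within the range of the ischemic kidneys, beside 7991 of all 18188 genes tested. Neither share was thus above that of all genes. Irf1, an early interferon response factor, was at 8.82, 76.6 and 63.9 FPKM in sham and between 6.8 and 10.6 FPKM (median 9.6) after ischemia, so sham replicate 1 fell inside the ischemic range. Its log2 fold change was -1.97 ± 0.40 (SE, adjusted p = 0.000726), and -2.90 without sham replicate 1. Without sham replicate 1 the calls were 16 of 16 and 24 of 28. Without replicate 2 they were 13 and 12, and without replicate 3 they were 14 and 12. The list medians moved to -3.62, -1.80 and -2.11 for the GTPases and to -2.09, -1.04 and -1.03 for the other interferon genes. Ifng itself was at 0.11, 0.1 and 0.05 FPKM in sham and at 0.1 FPKM or less after ischemia, and Cxcl9, a chemokine that follows it, was at 0.81, 0.61 and 0.33 FPKM in sham. T and NK cell markers summed to 7.91, 2.92 and 3.26 FPKM in sham replicates 1 to 3 and to 2.39 to 3.87 FPKM after ischemia. The sham kidney with the lowest interferon genes thus had the highest sum. Of these 11 markers 8 were under 1 FPKM in all 9 kidneys. Sham replicate 1 was the highest sham kidney in 7 of the 11 and the lowest in 2. The part of these cells in the result was not tested.

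**Figure D3:**
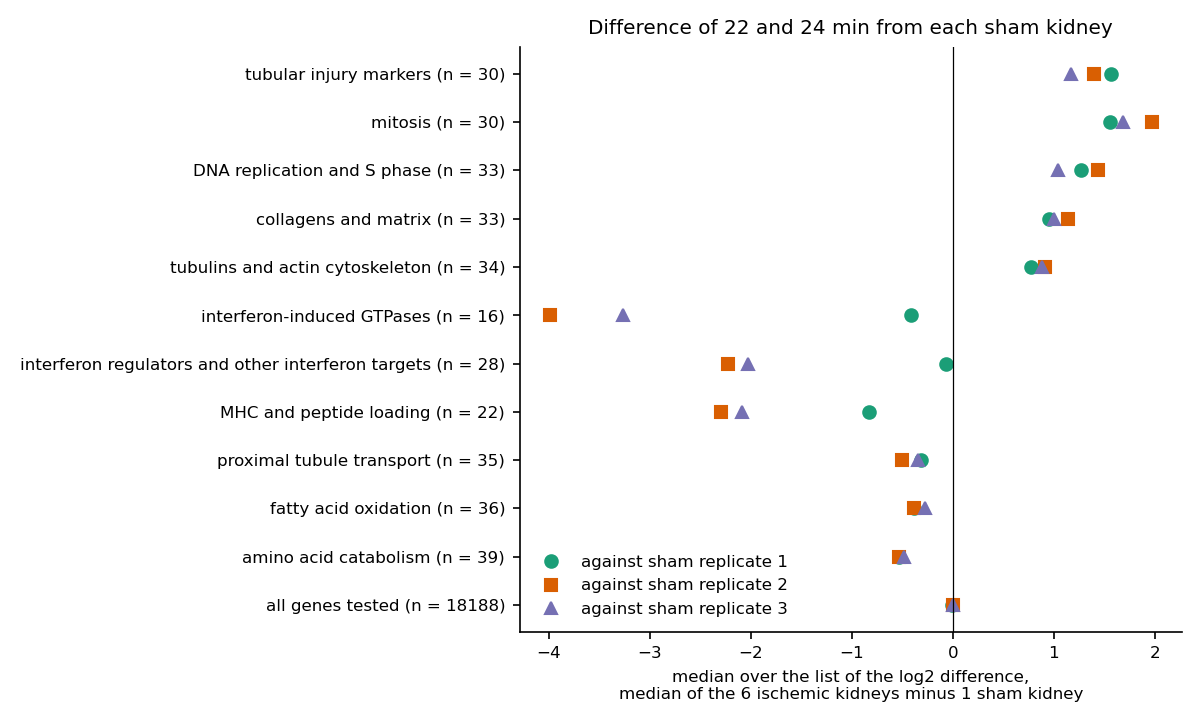
Median over each list of the log2 difference between the median of the 6 ischemic kidneys and 1 sham kidney, for sham replicates 1, 2 and 3. The interferon GTPases lie at -0.41, -3.99 and -3.27 for the 3 sham kidneys, whereas mitosis lies at 1.56, 1.97 and 1.68.

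Genes of antigen presentation were lower, and their median was below each of the 3 sham kidneys. Of 22 genes of the major histocompatibility complex (MHC) and peptide loading 18 were called lower and 0 higher (median -1.77). In 16 of the 18 the groups did not overlap, beside 78.5% of all genes called lower. The medians against sham replicates 1 to 3 were -0.83, -2.30 and -2.09. Sham replicate 1 was the lowest of the 3 in 21 of the 22, beside 6449 of 18188 genes tested. Without sham replicates 1, 2 and 3 in turn, 20, 16 and 17 of the 22 were called lower. The list medians then were -2.16, -1.60 and -1.59. Cd74, the invariant chain that escorts class II molecules, was at 674, 622 and 624 FPKM in sham and between 41.97 and 66.97 FPKM (median 59.3) after ischemia, a log2 fold change of -3.60 ± 0.29 (SE, adjusted p = 4.98e-08). Here the sham kidneys hardly differed, and leaving out any kidney left the fold change between -3.65 and -3.52. B2m, the light chain of class I, was at 1332, 2090 and 2127 FPKM in sham and between 300.1 and 360.2 FPKM (median 321) after ischemia, a log2 fold change of -2.61 ± 0.15 (SE, adjusted p = 6.73e-10), and H2-K1, a class I heavy chain, was at 384, 435 and 452 FPKM in sham and between 94.03 and 112 FPKM (median 102) after ischemia, a log2 fold change of -2.20 ± 0.10 (SE, adjusted p = 1.59e-11). For the class II chain H2-Ab1 the values were 249, 392 and 399.7 FPKM in sham and between 27.03 and 44.8 FPKM (median 31.5) after ischemia, a log2 fold change of -3.47 ± 0.29 (SE, adjusted p = 6.98e-08). The immunoproteasome subunit Psmb9 was close to the interferon pattern, at 4.75, 78.9 and 45.97 FPKM in sham and between 2.33 and 4.69 FPKM (median 3.92) after ischemia. Its log2 fold change was -2.65 (adjusted p = 0.00018), with -3.77 without sham replicate 1 and -1.90 without sham replicate 2. Ciita, the factor that switches on class II genes, was at 1.04, 17.3 and 10.8 FPKM in sham and between 0.53 and 0.69 FPKM (median 0.595) after ischemia, again with sham replicate 1 far lowest, although its targets Cd74 and H2-Ab1 were high in that kidney. Macrophage and dendritic cell markers had a median log2 fold change of -0.04 over 12 genes, the lowest at -0.64, with 2 called higher, 0 called lower and 1 lower by adjusted p, and their part in the result was not tested. They summed to between 86.0 and 99.3 FPKM in sham and 114 to 134 FPKM after ischemia. Among their 12 genes Cd68, a lysosomal glycoprotein, was at 3.04, 3.61 and 3.48 FPKM in sham and between 21.99 and 28.4 FPKM (median 23.02) after ischemia, a log2 fold change of 2.39 ± 0.22 (SE, adjusted p = 2.37e-07), and Lyz2 (lysozyme) rose by 1.12 (adjusted p = 0.0177), which was not called without sham replicate 2. Class I heavy chains share sequence, and reads may be split among them.

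Genes of proximal tubule function were mostly a little lower and few passed the fold threshold. Of 35 transporters 4 were called lower and 0 higher (median -0.43), of 13 brush border peptidases 2 and 0 (median -0.40), of 36 genes of fatty acid oxidation 5 and 0 (median -0.35), and of 39 genes of amino acid catabolism 2 and 0 (median -0.55). By adjusted p alone, with which 35.5% of all genes tested differed, 17 of 35, 7 of 13, 24 of 36 and 26 of 39 were lower, beside 19.0% of all genes tested. Slc22a7, the organic anion transporter OAT2, was at 107, 97.8 and 85.4 FPKM in sham and between 12.7 and 26.8 FPKM (median 23.02) after ischemia, a log2 fold change of -2.19 ± 0.28 (SE, adjusted p = 6.54e-06). Aqp1, the water channel of the proximal tubule and thin limb, was at 471, 490.4 and 509.5 FPKM in sham and between 202 and 275 FPKM (median 238) after ischemia, a log2 fold change of -1.29 ± 0.21 (SE, adjusted p = 9.83e-05). The brush border count was 1 without sham replicate 2, sham replicate 3, 22 min replicate 3 or 24 min replicate 1, and also without quantile normalization or with a constant sum per kidney. In Slc22a7 and Aqp1 the sham kidneys agreed closely and the groups did not overlap. Hpd, the dioxygenase of tyrosine breakdown, was at 69.4, 59.99 and 77.4 FPKM in sham and between 3.14 and 7.74 FPKM (median 5.54) after ischemia, a log2 fold change of -3.58 ± 0.34 (SE, adjusted p = 2.96e-07). Acadm, the medium-chain acyl-CoA dehydrogenase, was at 563, 552 and 540.5 FPKM in sham and between 214 and 271 FPKM (median 253) after ischemia, a log2 fold change of -1.37 ± 0.13 (SE, adjusted p = 3.85e-07), and Ehhadh, the peroxisomal bifunctional enzyme, was at 321, 362 and 336 FPKM in sham and between 102 and 140.1 FPKM (median 121) after ischemia, a log2 fold change of -1.60 ± 0.22 (SE, adjusted p = 1.6e-05). Lrp2 (megalin), the scavenger receptor of the brush border, was at 159, 169 and 156 FPKM in sham and between 82.96 and 108 FPKM (median 99.6) after ischemia, under the fold threshold at -0.74 (adjusted p = 0.0027). Slc34a1, the main phosphate transporter, was at 2377, 2272 and 2028 FPKM in sham and between 1759 and 2396 FPKM (median 2061) after ischemia, where the groups overlapped.

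Energy metabolism in the stricter sense was not called. Of 22 citric acid cycle genes, 26 of glycolysis and gluconeogenesis and 36 nuclear genes of oxidative phosphorylation 0 passed the DEG thresholds by limma, with medians of -0.11, 0.22 and -0.01. By adjusted p alone 4 were higher and 8 lower in the citric acid cycle, 11 and 3 in glycolysis, and 7 and 4 in oxidative phosphorylation, beside 16.4% higher and 19.0% lower of all genes tested. Of 30 ribosome biogenesis genes 0 were called and 14 were higher by adjusted p (median 0.21), beside the same 16.4% of all genes tested. Of 25 heat shock and unfolded protein response genes 2 were called higher, the small heat shock protein Hspb1 by 1.30 and the stress factor Atf5 by 1.02, with 1 called without sham replicate 1 or 24 min replicate 1 and 4 without sham replicate 3. Of 20 p53 targets 2 were called higher and 1 lower (median 0.10, 0 lower without sham replicate 2).

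Genes known to be driven by androgen or to differ by sex in mouse kidney were lower in part, with 7 of 20 called lower and 1 higher (median -0.58). Cyp7b1, an oxysterol hydroxylase that is high in male kidney, was at 126, 153 and 136 FPKM in sham and between 4.95 and 9.94 FPKM (median 8.7) after ischemia, a log2 fold change of -3.94 ± 0.40 (SE, adjusted p = 6.12e-07). Cyp2e1, a cytochrome that oxidises small solvents, was at 788, 795 and 797 FPKM in sham and between 218 and 308 FPKM (median 274) after ischemia, a log2 fold change of -1.59 ± 0.16 (SE, adjusted p = 7.53e-07), and the lipid-binding glycoprotein Azgp1 was at 37.5, 48.3 and 37.9 FPKM in sham and between 8.57 and 12.2 FPKM (median 9.88) after ischemia, a log2 fold change of -2.01 ± 0.24 (SE, adjusted p = 3.18e-06). Sham kidneys were close to each other in all 3 genes. Slco1a1, an organic anion carrier, was at 21.3, 20.9 and 17.1 FPKM in sham and between 2.7 and 10.4 FPKM (median 4.78) after ischemia, a log2 fold change of -1.88 ± 0.40 (SE, adjusted p = 0.00092). The 4 sex-linked genes tested had 0 calls. Kap, the kidney androgen-regulated protein, had the highest level of all genes in sham, at 49640, 47740 and 47050 FPKM, and was between 14840 and 19050 FPKM (median 15910) after ischemia. Its share of the summed FPKM was 8.95% ± 0.291 (SD, n = 3) in sham and 3.10% ± 0.339 (SD, n = 6) after ischemia (exact permutation test, two-sided, p = 0.0238, the smallest that 6 against 3 allows). Quantile normalization pulls the highest gene of every kidney to a common value, and there the fold change of Kap was -0.42 (adjusted p = 0.0662), whereas it was -1.53 without it. FPKM are relative values, and the median of all genes tested was 0.035 on the log2 scale without quantile normalization.

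Clock genes differed in both directions, with 4 of 19 called higher and 3 lower (median 0.28). Without sham replicate 1 the count lower was 1. Arntl, which encodes the activator BMAL1, was at 8.38, 5.41 and 5.78 FPKM in sham and between 0.58 and 0.96 FPKM (median 0.775) after ischemia, a log2 fold change of -2.21 ± 0.17 (SE, adjusted p = 4e-08), and its partner Npas2 was at 5.67, 1.81 and 1.69 FPKM in sham and between 0.45 and 0.89 FPKM (median 0.645) after ischemia, a log2 fold change of -1.32 ± 0.19 (SE, adjusted p = 2.49e-05). On the other side Dbp, an output gene of the clock, was at 19.2, 28.8 and 24.3 FPKM in sham and between 60.8 and 96.1 FPKM (median 82.9) after ischemia, a log2 fold change of 1.63 ± 0.17 (SE, adjusted p = 9.58e-07), and the repressor gene Per2 was at 2.03, 3.32 and 4.99 FPKM in sham and between 10.97 and 13.9 FPKM (median 11.9) after ischemia, a log2 fold change of 1.50 ± 0.16 (SE, adjusted p = 1.15e-06). The groups did not overlap in any of these 4, and sham replicate 1 had the highest Arntl and Npas2 and the lowest Dbp and Per2. The hour of day of collection is not given in the sources used here.

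Of 24 genes of cholesterol synthesis and uptake 4 were called higher and 1 lower (median 0.48), and without sham replicate 2 the counts were 3 and 0. Fdps, which makes farnesyl pyrophosphate, rose by 1.26 (adjusted p = 4.2e-05). Cyp51, the sterol demethylase, was lower with -1.05 (adjusted p = 0.000396) and was called in 7 of the 9 fits that each left out 1 kidney. Of 30 growth factors and genes of tubule repair 6 were called higher and 2 lower (median 0.13). Egf, a growth factor made by the thick ascending limb and distal tubule, was at 301, 375 and 259 FPKM in sham and between 42.7 and 104 FPKM (median 84.7) after ischemia, a log2 fold change of -2.12 ± 0.51 (SE, adjusted p = 0.00268). Markers of the thick ascending limb summed to between 1920 and 2080 FPKM in sham and 1580 to 2490 FPKM after ischemia, with 0 of 6 called. Their median log2 fold change was -0.64 and the lowest was -1.16, and 1 was lower by adjusted p. The groups did not overlap in 4 of 6, beside 34.8% of all genes tested. Their part in the Egf values was not tested. Among the increases were Gdf15, a stress hormone, with a log2 fold change of 1.50, Hbegf, a ligand of the EGF receptor, with 1.08, and Tgfb1 with 1.01.

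Markers of other cells were mostly not called. Markers called lower were 2 of 9 for the proximal tubule, 1 of 5 for the thin limb, beside 1 higher, and 1 of 5 for the distal convoluted tubule, where the count was 0 without sham replicate 1 or 2. Of 9 endothelial, 7 podocyte, 7 collecting duct principal cell and 6 intercalated cell markers 0 were called, and the 11 neutrophil, 11 T and NK cell and 6 B and plasma cell markers likewise had 0 calls, except that 2 neutrophil markers were lower without sham replicate 1. Neutrophil markers stayed low, summing to between 5.59 and 12.2 FPKM in sham and 4.37 to 8.16 FPKM after ischemia, although Cxcl1 rose. Red cell markers summed to 645, 205 and 123 FPKM in sham replicates 1 to 3 and to 504 to 1130 FPKM after ischemia. Of 6 such genes 4 were called higher (median 1.10), but 0 of them had groups that did not overlap, and without sham replicate 2 the count was 1 and without replicate 3 it was 0. The 7 adipocyte and 7 mesothelium and urothelium markers had 0 calls. Skeletal muscle and adrenal markers were at 2.04 FPKM or less in sum.

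No gene was called between the 22 min and the 24 min kidneys. In the direct comparison 0 DEGs were called by limma, with 469 genes at an unadjusted p under 0.05, and the count was 0 in all alternatives tried. Against sham, 22 min alone called 599 DEGs (3.29% of genes tested), of which 381 were higher (2.09%) and 218 lower (1.2%), and 24 min alone 567 (3.12%), of which 358 were higher (1.97%) and 209 lower (1.15%), with 498 of the 588 pooled DEGs called at both. The smallest p in the direct comparison was that of Kbtbd2, a ubiquitin ligase adaptor, at 5.02, 4.42 and 4.98 FPKM at 22 min and 6.45, 6.52 and 5.95 FPKM at 24 min. Its log2 difference was 0.33 ± 0.06 (SE, adjusted p = 0.637). Next were Tiparp, a mono-ADP-ribosyltransferase, with -0.50 ± 0.10 (SE, adjusted p = 0.766), Prr5, a subunit of mTORC2, with -0.65 ± 0.14 (SE, adjusted p = 0.766), Polr3d, a subunit of RNA polymerase III, with -0.54 ± 0.12 (SE, adjusted p = 0.766), and Baz2b, a bromodomain protein, with -0.48 ± 0.11 (SE, adjusted p = 0.769). Each separated the 3 kidneys at 22 min from the 3 at 24 min, but none passed adjustment over 18188 genes.

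Kidneys after 18 and 20 min differed from them in no called gene. Between 22 and 24 min together and 18 and 20 min together, 0 DEGs were called by limma (525 genes at an unadjusted p under 0.05). The median over injury markers was 0.14, over mitosis 0.01 and over interferon GTPases -0.05. Mean Havcr1 was 394 and 340.3 FPKM at 18 and 20 min, beside 405 and 396 FPKM at 22 and 24 min. Cyp7b1, at 16.5 and 17.9 FPKM at the shorter times, was at 7.98 and 8.61 FPKM. Against 26 min 0 DEGs were called as well (1257 at an unadjusted p under 0.05), with mean Havcr1 of 557 FPKM. These absences of calls do not show that the times are alike.

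**Figure D4:**
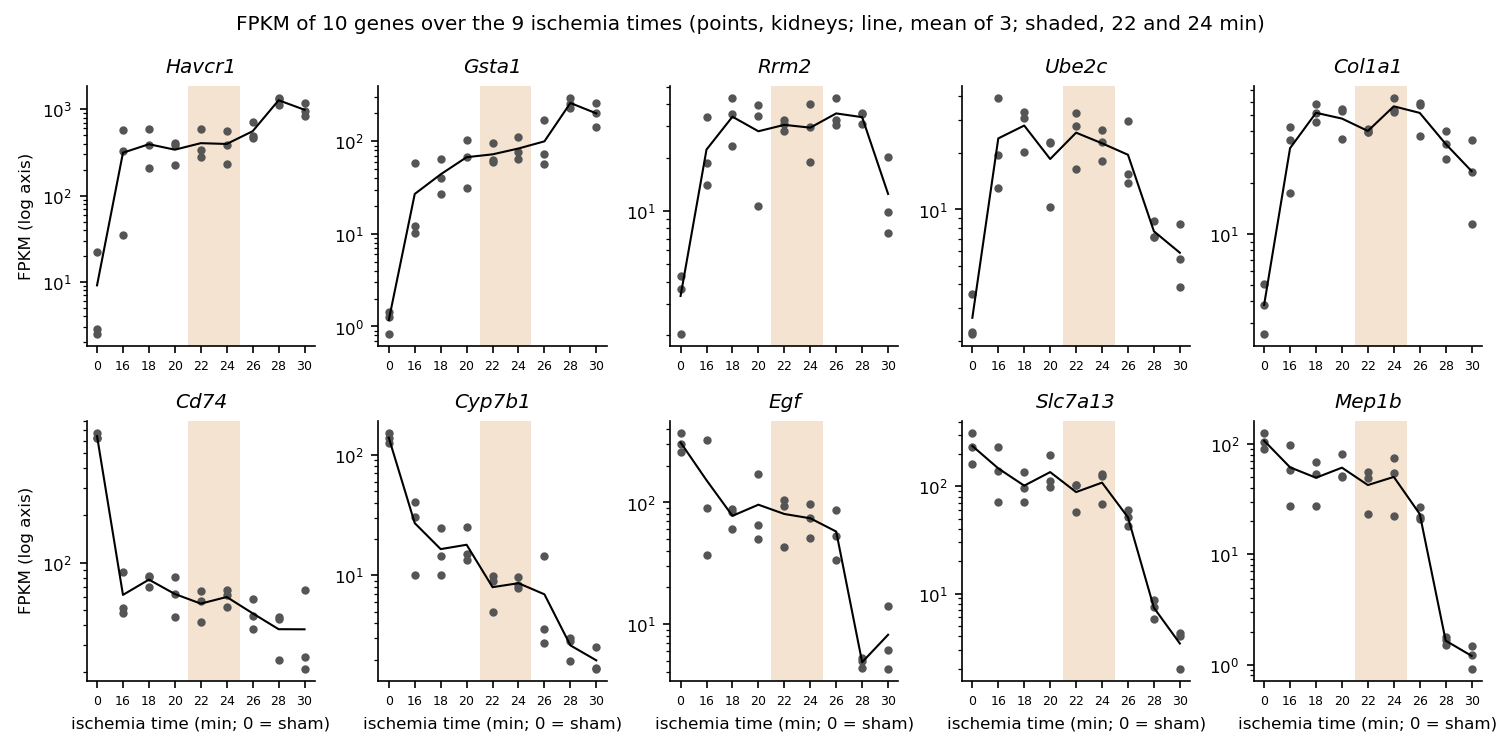
FPKM (log axis) of 10 genes in each of the 27 kidneys against ischemia time in min, with the 9 times at equal steps, a line through the means of 3 kidneys and 22 and 24 min shaded. Havcr1 and Gsta1 lie higher again at 28 min, Ube2c lies lower there, and Egf, Slc7a13 and Mep1b drop at 28 min from the levels they hold at 22 and 24 min.

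After 28 min many genes differed, with 452 DEGs against 22 and 24 min (2.49% of genes tested), of which 142 were higher (0.781%) and 310 lower (1.7%). This comparison and the one with sham share the 6 ischemic kidneys, so their values are set side by side and not correlated. Of the 142 higher, 53 were already higher at 22 and 24 min and 87 were not DEGs there. Of the 310 lower, 49 were already lower and 249 were not DEGs there, and 14 DEGs of the 588 went back towards sham. Injury markers went further the same way, with 15 of 30 called higher at 28 min (median 1.12), among them Havcr1 by 1.88 ± 0.64 (SE, adjusted p = 0.03) and Krt20 by 2.62 ± 0.47 (SE, adjusted p = 0.000277). Genes of tubule transport, brush border and amino acid catabolism fell in part, with 12 of 35 transporters (median -0.75), 7 of 13 brush border peptidases (median -1.08) and 10 of 39 genes of amino acid catabolism (median -0.67) called lower. Fatty acid oxidation had 2 of 36 called lower and 1 higher (median -0.23). By adjusted p alone 15 of the 36 were lower and 5 higher, beside 13.6% lower and 18.8% higher of all genes tested. Slc7a13, the cystine transporter of the straight proximal tubule, was at 88.3 and 108 FPKM in the means of 22 and 24 min and at 7.37 FPKM at 28 min, a log2 fold change of -3.52 ± 0.33 (SE, adjusted p = 4.48e-07). Mep1b, a brush border metalloprotease, went from 42.4 and 50.3 to 1.65 FPKM, a log2 fold change of -3.98 ± 0.37 (SE, adjusted p = 4.14e-07). Slc34a1, not called at 22 and 24 min against sham, fell by 1.64 ± 0.16 (SE, adjusted p = 5.1e-07) to a mean of 734 FPKM. Egf fell by a further 3.66 ± 0.52 (SE, adjusted p = 2.86e-05).

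The cell cycle genes did not move as one at 28 min. Of the 30 mitotic genes 6 were called lower against 22 and 24 min and 0 higher (median -0.57), and these were Cdca3, Ccnb2, Ube2c, Cdc20, Plk1 and Kif20a. Ube2c fell by 1.51 ± 0.33 (SE, adjusted p = 0.00131) and Ccnb2, the cyclin B2, fell by 1.61 ± 0.34 (SE, adjusted p = 0.00121). Of the 33 replication genes 0 were called and 7 were higher by adjusted p (median 0.46), beside 18.8% of all genes tested, with Rrm2 at 33.8 FPKM at 28 min. Collagens and matrix had 0 called higher and 1 lower (median -0.19), the interferon GTPases 0 and 0 (median -0.49), and MHC and peptide loading 0 and 0 (median -0.12). By adjusted p alone 32.4% of all genes tested differed at 28 min. NRF2 targets had 7 higher and 1 lower (median 0.45). Gsta1 was called higher again, a log2 fold change of 1.80 ± 0.45 (SE, adjusted p = 0.00404), and so was Txnrd1 (thioredoxin reductase), a log2 fold change of 1.41 ± 0.11 (SE, adjusted p = 6.74e-08), which had been under the fold threshold at 22 and 24 min with 0.33 (adjusted p = 0.0233). Cholesterol synthesis turned from a median of 0.48 against sham to -0.58 at 28 min, with 19 of 24 genes lower by adjusted p, beside 13.6% of all genes tested.

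**Figure D5:**
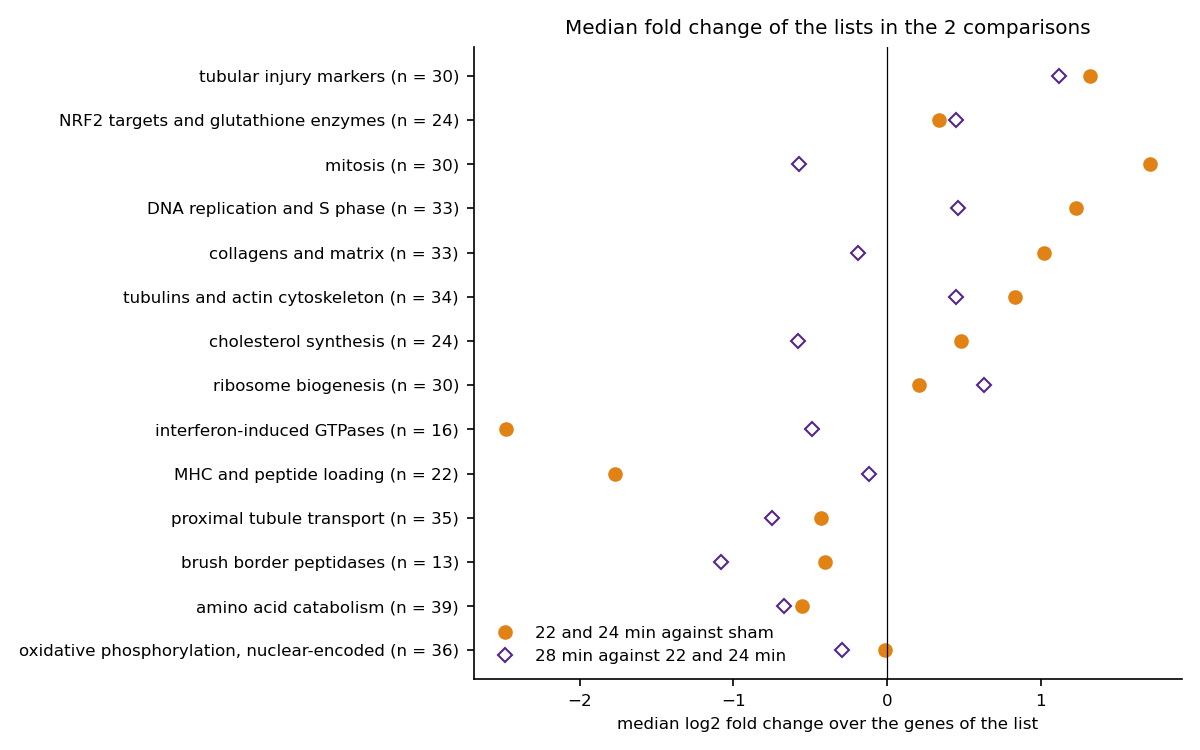
Median log2 fold change over each list at 22 and 24 min against sham (filled circles) and at 28 min against 22 and 24 min (open diamonds); both use the same 6 ischemic kidneys. Mitosis lies at 1.71 and -0.57, DNA replication at 1.23 and 0.46, and brush border peptidases at -0.40 and -1.08.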

How the data were processed

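Left kidney tissue of 27 mice was profiled by bulk RNA sequencing on a DNBSEQ-G400, 3 mice at each of 9 ischemia times including sham, 24 h after reperfusion. The authors deposited 1 table of FPKM per gene symbol, with 2 decimals and no read counts. The submitters' processing notes name Bowtie2, RSEM and DESeq2, without versions, and the build GRCm38.p6, and the methods of the study describe limma on quantile-normalized log2 values.

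From these values, log2(FPKM + 1) was quantile normalized and fitted with limma 3.58.1 in R 4.3.3 over all 27 kidneys, so that all times share 1 spread per gene. Each ischemia time had 1 mean, except that 22 and 24 min shared 1 mean in the pooled comparison with sham. The other comparisons kept separate means for 22 and 24 min and averaged means where times were grouped. Genes above 0 FPKM in at least 3 kidneys were tested, and p-values were adjusted by Benjamini-Hochberg over all of them. DEGs were genes that changed by more than 1 on the log2 scale with an adjusted p under 0.05. The model was first run on simulated kidneys with the same spread in every group and changes placed only in well expressed genes of small spread. That run does not cover low genes or genes whose sham kidneys differ widely. FPKM can show the relative depth of kidneys in the steps of low values, where 1 fragment was worth 1.00 to 1.05 times the median kidney in the 9 used here, but total depth is unknown, so no counting interval is given. The p-values measure the spread between single mice, taken as equal in all groups. Where sham kidneys differ more than the others, as in interferon genes, SE and p understate the spread among sham kidneys.

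Named genes were the 10 largest increases and decreases among DEGs without overlap between groups, leaving out symbols with Gm, LOC or Rik, the 5 smallest p-values between 24 and 22 min, and members of 27 gene lists and 18 cell marker lists. The members, lists and rules were chosen with earlier results of these data known. A total of 4 listed symbols were matched through RefSeq synonyms. Promoters came from RefSeq. Shares of a single gene were compared by an exact permutation test (scipy 1.17.1). Alternatives were the pseudocount, the scaling, the filter on low values, the kidneys fitted, the variance model, a replicate block and leaving out each kidney. Some list members and their results are not reported here.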

Additional observations from a re-analysis of the deposited data

Results flagged for a closer look

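In 3 of the 100 genes tested for it, 1 of the 6 kidneys after 22 and 24 min lay far from the other 5, where chance alone gives about 1 in 20. H2-Ab1 was at 44.8 FPKM in 22 min replicate 3. Hmox1 was at 95.8 FPKM in 24 min replicate 1. Timp1 was at 35.1 FPKM in 24 min replicate 1.

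The difference between 28 min and 22 and 24 min was tested directly by limma, and 452 DEGs were called. Of the genes named here 35 were among them, given with their log2 fold change. Higher at 28 min were Krt20 (2.62), Hmox1 (2.10), Cbr3 (2.02), Havcr1 (1.88), Gsta1 (1.80) and Gdf15 (1.65). Smaller increases were those of Akr1b8 (1.55), Mt2 (1.47), Cdkn1a (1.44), Txnrd1 (1.41), Anxa2 (1.37) and Sox9 (1.36). Further increases were Spp1 (1.32), Mt1 (1.26), Atf5 (1.14), S100a6 (1.11) and Clu (1.05). Lower at 28 min were Mep1b (-3.98), Egf (-3.66), Slc7a13 (-3.52), Slc22a7 (-2.30), Kap (-1.89) and Cdca3 (-1.71). Smaller decreases were those of Slc34a1 (-1.64), Cyp2e1 (-1.61), Ccnb2 (-1.61), Ces1g (-1.57), Aqp1 (-1.55) and Ube2c (-1.51). Further decreases were Cyp7b1 (-1.33), Cyp51 (-1.21), Cdc20 (-1.15), Plk1 (-1.05), Hpd (-1.04) and Kif20a (-1.03).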

How the results depend on the processing

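With a pseudocount of 0.1 in place of 1, DEG counts rose to 1173 for the pooled comparison with sham, 1154 for 22 min, 1109 for 24 min and 869 for 28 min against 22 and 24 min. The other alternatives that kept all kidneys gave 566 to 812 DEGs for the pooled comparison, with 601 higher and 211 lower after scaling to a constant sum. Called genes went from 7 to 11 for AP-1 factors and from 3 to 5 for p53 targets both with the pseudocount of 0.1 and with a constant sum, and with the pseudocount of 0.1 from 8 to 14 for chemokines and from 0 to 1 for glycolysis. Leaving out 1 kidney gave 503 to 614 DEGs for the pooled comparison, 508 to 622 for 22 min, 472 to 607 for 24 min and 410 to 498 for 28 min. It gave 0 to 1 for 26 min, where the 1 appeared without 26 min replicate 3, and 0 to 0 for the comparisons with 0 DEGs at 24 against 22 min and at 18 and 20 min. The replicate block called 589 DEGs. Same-numbered kidneys of different groups correlated between -0.16 and 0.27 in their deviations, and kidneys with different numbers between -0.33 and 0.29. No pairing by number was seen, but 3 kidneys per group are too few to exclude it. The block changed the call of 0 of the genes named here. Fth1 turned from -0.29 to 0.42 on the log2 scale without quantile normalization and likewise to 0.42 with a constant sum. Quantile normalization forces the highest genes of each kidney to common values, which affects Kap and Fth1. Only 3 sham kidneys set the baseline, and 2 of them stood apart.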

Other observations

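More genes were detected after ischemia than in sham. Genes at 1 FPKM or more numbered 12280.0 ± 29.7 (SD, n = 6) after 22 and 24 min and 11960.0 ± 75.2 (SD, n = 3) in sham (exact permutation test, two-sided, p = 0.0238, the smallest that 84 splits allow), while summed FPKM had p = 0.738 in the same exact permutation test.

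Other promoter motifs were counted in the 250 bases before the start, on both strands. The antioxidant response element ARE, searched as TGACNNNGC, was in 11.4% of all promoters and in 4 of 20 NRF2 targets, and the AP-1 letters TGANTCA were in 5.28% of all promoters and in 0 of 15 AP-1 and immediate early factors.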
